A study of Homo sapiens with 24 samples.

Results

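The 40 genes described here act in G2 and mitosis, the stretch of the cell cycle in which a cell with replicated DNA assembles a spindle, separates its chromosomes and divides. They were taken by symbol from the deposited count table, which lists 28278 genes, and 40 of 40 were found and passed the filter on low counts. The measurements are RNA-seq counts from TYUC-1, a human cancer cell line from a neuroendocrine carcinoma of the esophagus that is grown in suspension. There were 2 engineered lines, i-TAp63 and i-DNp63, which express TAp63 or ΔNp63 when given doxycycline at 1 µg/ml. Cells of each line had doxycycline for 0, 1, 3 or 6 days within a course of 6 days, with DMSO, the vehicle, on the remaining days. There were 3 libraries per line and day, hence 8 groups and 24 libraries.

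TP63 encodes a p53-family transcription factor that squamous epithelia need to keep their proliferating cells. Its TAp63 and ΔNp63 forms start at different promoters, and ΔNp63 lacks the N-terminal activation domain of TAp63. A treatment label on each sample also names EPZ-6438, which blocks the chromatin enzyme EZH2, with a number of days equal to those of doxycycline. The titles and the design name only p63 induction, so a difference in the inhibitor cannot be told apart from the days of induction if it was used. Cells given doxycycline but carrying no construct were not analysed here. The promoter that drives each construct, and whether a line is 1 clone, are not given in the sources used here. The replicates are called biological with no word on how the cultures were kept apart, so each p-value reflects only how far these libraries spread, which may be technical.

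Mitotic entry is driven by CDK1 bound to cyclins A and B, and the kinases Aurora and Polo then organise the spindle. The checkpoint at the kinetochores, the protein plates that hold microtubules, delays chromosome separation until every chromosome is attached. The anaphase-promoting complex, a ubiquitin ligase, ends mitosis by marking cyclin B and securin for destruction. The RNA of these genes is low in G1 and high in G2 and mitosis. Their promoters often hold a CHR element (cell cycle genes homology region), the site of the MuvB complexes that repress them as DREAM and activate them together with FOXM1, and CCAAT boxes, which NF-Y binds. In bulk RNA, fewer cells in G2 and mitosis and less RNA per cell cannot be told apart.

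The promoters shown are those of the members described library by library that had the lowest p at day 6 in the TAp63 line and hold a CHR element. They show where these letters lie in the promoters of members whose fitted changes were below 0 at days 3 and 6 in both lines; the choice used measured values. Each is the 150 bases before the RefSeq start, 5′ to 3′ on the gene's strand, in GRCh38.p14 coordinates; capitals mark CHR elements (TTTGAA or TTTAAA) and CCAAT boxes (CCAAT, or ATTGG on the other strand).
MKI67 (chr10:128126424-128126573, minus strand): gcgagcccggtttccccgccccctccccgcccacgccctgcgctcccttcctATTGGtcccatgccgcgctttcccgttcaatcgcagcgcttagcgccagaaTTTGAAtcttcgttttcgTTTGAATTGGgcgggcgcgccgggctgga
CCNB2 (chr15:59104996-59105145, plus strand): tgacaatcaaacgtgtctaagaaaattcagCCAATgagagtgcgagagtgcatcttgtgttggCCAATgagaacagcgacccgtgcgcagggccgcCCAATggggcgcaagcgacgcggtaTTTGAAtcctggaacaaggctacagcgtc
PTTG1 (chr5:160421705-160421854, plus strand): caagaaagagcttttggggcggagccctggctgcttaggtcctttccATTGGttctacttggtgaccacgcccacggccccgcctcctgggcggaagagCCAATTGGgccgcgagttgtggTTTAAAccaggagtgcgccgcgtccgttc
CENPA (chr2:26785906-26786055, plus strand): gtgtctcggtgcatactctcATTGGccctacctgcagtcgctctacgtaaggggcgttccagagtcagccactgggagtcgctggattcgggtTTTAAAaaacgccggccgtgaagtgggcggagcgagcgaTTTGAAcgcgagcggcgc
CCNB1 (chr5:69167000-69167149, plus strand): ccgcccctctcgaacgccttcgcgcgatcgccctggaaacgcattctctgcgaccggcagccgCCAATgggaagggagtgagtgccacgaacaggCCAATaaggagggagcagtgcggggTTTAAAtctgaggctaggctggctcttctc
CDCA8 (chr1:37692366-37692515, plus strand): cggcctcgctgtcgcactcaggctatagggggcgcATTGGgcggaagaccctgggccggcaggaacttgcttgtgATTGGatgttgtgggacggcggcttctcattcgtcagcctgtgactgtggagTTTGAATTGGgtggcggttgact

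In CCNB2, PTTG1 and MKI67 a CHR element begins 29 bases before the start, and in CCNB1 it begins 30 bases before it. CDCA8 has its element 23 bases before the start and CENPA has one 18 bases before it. In MKI67 and CDCA8 the last A of the element is the first base of ATTGG, and PTTG1 has CCAAT and ATTGG sharing bases, so these capitals run together. CCNB2 holds 3 CCAAT boxes in the printed stretch, at 120, 87 and 54 bases before the start. A promoter window, 250 bases before to 50 after a start, was found for 34 of the 40 members, and not for FOXM1, AURKA, BIRC5, TTK, TPX2 and UBE2C. Searched on both strands, a CHR element of either form was in a window of 29 of these 34 genes (85.3%), against 27.9% of 27305 genes with a window and 22.1% of the 11815 tested genes with one. At least 1 CCAAT box was in 27 (79.4%, against 39.7% of all genes and 42.5% of tested genes), and at least 2 were in 20 (58.8%, against 12.9% and 15.7%). An E2F site, TTTCGCG or TTTGGCG, was in 5 (14.7%, against 3.85% and 6.19%). The p53-family half-site was in 4, CDC25C, CDCA8, CENPF and CDCA3 (11.8%, against 8.06% and 7.63%). These are matches of letters in a window and show no binding.

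Counts were 1530847 in replicate 3 of ΔNp63 day 1 and 6375963 to 22019974 in the other 23 libraries. TP63 checked the induction: it had 326 to 1033 CPM (counts scaled to a common library size) in induced libraries other than that one, where it had 69.2 CPM, against 2.90 to 4.94 CPM at day 0. The same library scored -193.9 on the leading principal component (49.6% of the variance), against -17.0 to 24.9 for the others, and it had 1727 CPM of the fetal globin HBG2, against at most 30.6 CPM elsewhere. The erythroid list summed to 4860 CPM in it, against 339 to 544 CPM elsewhere, and the fibroblast list to 11.3 to 34.1 CPM in the others. Of the 40 members, 15 were above and 8 below the range of all other libraries in it. The same share over all genes was not computed, so these counts describe that library and not the members. NDC80 had 106 CPM there, against 22.3 and 26.4 CPM in the other replicates of ΔNp63 day 1, and UBE2C had 25.9 CPM there, against 140 and 161 CPM. It enters the shared estimate of the spread, so the counts of members called by edgeR are given with and without it; counts by DESeq2 and at an unadjusted p use all libraries. Of the neuroendocrine markers, CHGA, INSM1 and SCG2 averaged under 1 CPM. The immune cell list summed to 536 to 690 CPM at day 6 of ΔNp63, against 951 to 1124 CPM at day 0; LYZ alone had 473 to 1405 CPM over the 23 other libraries, while PTPRC, which defines white blood cells, had 0.790 to 5.28 CPM in them and 89.1 CPM in the library that stood apart. The tuft cell list summed to 465 to 539 CPM at day 3 of ΔNp63, against 732 to 764 CPM at day 0. It summed to 453 to 529 CPM at day 1 of ΔNp63 and 534 to 594 CPM at day 6. In the TAp63 line it summed to 767 to 802 CPM at day 0 and 518 to 639 CPM at day 1. At days 3 and 6 of TAp63 it summed to 633 to 694 CPM and 653 to 695 CPM. The part of these markers in the results was not tested.

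After 3 days of ΔNp63 the median log2 change of the members was -0.37, and 12 of the 40 fell by the test, against 2.69% of all genes (31 without the library that stood apart, against 11.3%), the Aurora and Polo kinases, the cyclins and the spindle factor TPX2 among them. After 3 and 6 days of TAp63 the median changes were -0.23 and -0.24. With all libraries edgeR called none of the members lower there, against 0.109% and 0.0384% of all genes. Without the library that stood apart it called 11 and 8 lower, against 1.37% and 0.646%. At an unadjusted p under 0.05 there were 13 and 15 members at days 3 and 6 of TAp63, against 3.38% and 2.25% of all genes lower, and DESeq2 called 6 and 3, against 0.522% and 0.205%. No member was called higher at these days in either line, against 0.793% and 0.742% of all genes at days 3 and 6 of TAp63, and 4.21% and 3.22% at days 3 and 6 of ΔNp63. Summed over the 40 members, the level was 4244 ± 254 CPM at day 3 of ΔNp63, against 5423 ± 319 CPM at day 0 (SD, n = 3), and the 3 induced libraries were all below the 3 at day 0. At day 6 of ΔNp63 the sum was 4689 ± 418 CPM, and at day 1 it was 5415 ± 226 CPM. In the TAp63 line the sum was 4633 ± 460 CPM at day 3 and 4609 ± 386 CPM at day 6, against 5332 ± 385 CPM at day 0, and the groups overlapped.

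**Figure D1:**
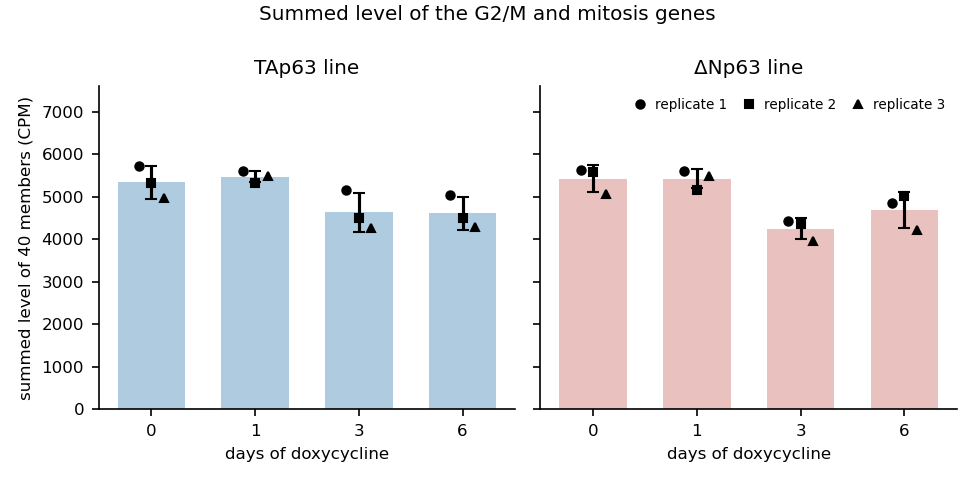
Summed level of the 40 members in CPM (y axis) by days of doxycycline (x axis) in the TAp63 line (left) and the ΔNp63 line (right). Bars are means of 3 libraries, error bars are SD and symbols are libraries by replicate number; at day 3 of ΔNp63 the mean is 4244 CPM, against 5423 CPM at day 0.

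Each induced day was compared with day 0 of the same line in 1 edgeR quasi-likelihood model of all 24 libraries with the replicate number as a block, and calls were made where the p, adjusted by Benjamini-Hochberg over the 15642 genes tested, was under 0.05. At day 3 of ΔNp63, 12 of the 40 members were called lower, against 2.69% of all genes, and 31 were called lower without the library that stood apart, against 11.3%. The median log2 change of the members was -0.37, against -0.01 over all genes, and all 40 fitted changes were below 0, from -0.57 to -0.01. In 26 members the 3 libraries of day 3 were all below the 3 of day 0, against 10.4% of all genes, and 36 members were lower in 3 of 3 same-numbered pairs, against 28% of all genes. At day 6 of ΔNp63, 3 members were called lower, against 1.34% of all genes, and 18 without that library, against 5.94%. DESeq2 called 20 members lower at day 3 of ΔNp63, against 5.65% of all genes, and 7 at day 6, against 2.95%. The median change at day 6 was -0.24, and 12 members did not overlap with day 0, against 7.68% of all genes. Days 3 and 6 share their day 0 libraries, so their directions are not independent of each other.

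**Figure D2:**
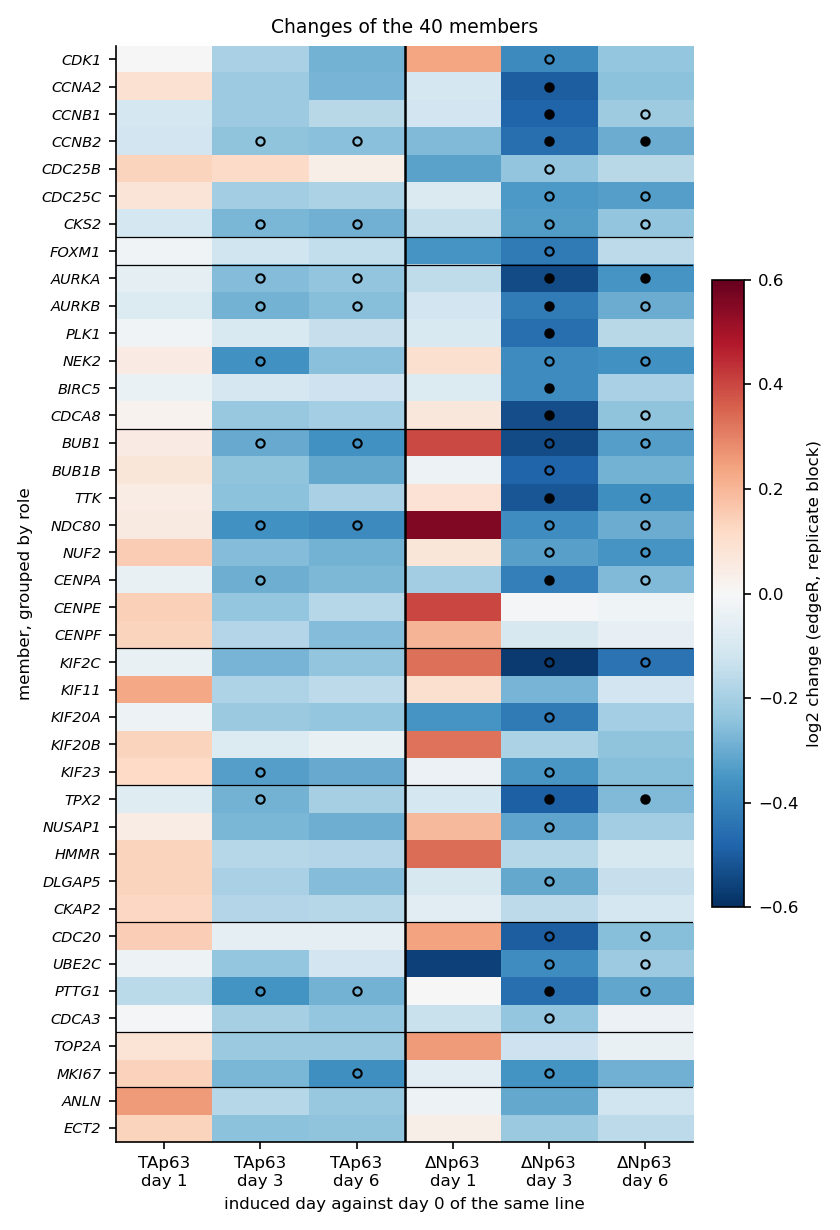
Log2 change of each member (rows, grouped by role) for each induced day against day 0 of the same line (columns), blue for lower and red for higher. Filled circles mark the 15 calls with all libraries, all in the ΔNp63 line, and open circles the calls made only without replicate 3 of ΔNp63 day 1.

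The cyclins that drive mitotic entry were among the called genes. CCNB1, the cyclin that carries CDK1 into the nucleus at mitotic entry, had 131, 145 and 129 CPM at day 3 of ΔNp63, against 178, 207 and 180 CPM at day 0. All 3 induced libraries were below all 3 at day 0, and the change was -0.48 ± 0.08 (log2 ± SE; adjusted p = 0.000656). CCNB1 at day 6 of ΔNp63 had 140, 185 and 162 CPM, which overlapped with day 0 (-0.21, adjusted p = 0.141, and 0.0337 without the library that stood apart). CCNB2, the second B-type cyclin, had 145, 142 and 126 CPM at day 3 of ΔNp63, against 182, 207 and 176 CPM at day 0. It fell by 0.45 on the log2 scale (SE 0.08, adjusted p = 0.00223). At day 6 CCNB2 had 141, 174 and 143 CPM, again all below day 0 (-0.30 ± 0.08, adjusted p = 0.0442). CCNA2, cyclin A2, which acts from S phase into early mitosis, had 76.7, 103 and 93.8 CPM at day 3 of ΔNp63, against 117, 142 and 126 CPM at day 0, with no overlap (-0.50 ± 0.11, adjusted p = 0.00745).

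CDK1, the kinase that these cyclins bind, had 66.1, 106 and 97.7 CPM at day 3 of ΔNp63, against 94.0, 132 and 123 CPM at day 0. The groups overlapped, although each library was below its same-numbered partner, and CDK1 did not pass the test with all libraries (-0.38, SE 0.19, adjusted p = 0.248). Replicate 3 of ΔNp63 day 1 held 225 CPM of it, and without that library the same change had an SE of 0.10 and an adjusted p of 0.00749. CDC25B and CDC25C, phosphatases that switch CDK1 on, and CKS2, a small subunit that binds CDKs, were likewise called lower at day 3 of ΔNp63 only without it, with changes of -0.24, -0.35 and -0.34 in that fit. FOXM1, the transcription factor that activates many of these genes, had 171, 133 and 135 CPM at day 3 of ΔNp63, against 196, 208 and 182 CPM at day 0. The groups did not overlap, yet the adjusted p was 0.217 with all libraries (-0.43 ± 0.20) and 0.00023 without the library that stood apart, in which FOXM1 was at 62.5 CPM. FOXM1 at day 6 of ΔNp63 was at 184, 170 and 172 CPM, with 1 library inside the day 0 range (-0.16, adjusted p = 0.839).

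The mitotic kinases and the chromosomal passenger complex gave 5 calls among 6 genes at day 3 of ΔNp63, against 2.69% of all genes called lower. AURKA, the Aurora kinase of centrosomes and spindle poles, had 83.2, 81.4 and 82.0 CPM, against 117, 124 and 116 CPM at day 0. Its 3 induced libraries lay close together and far below day 0, and it fell by 31.0% (log2 change -0.53 ± 0.07, adjusted p = 7.38e-05). AURKA at day 6 of ΔNp63 had 93.4, 95.9 and 90.7 CPM, between the levels of day 3 and day 0 and below all 3 day 0 libraries (-0.35 ± 0.07, adjusted p = 0.00394). AURKB, the catalytic kinase of the passenger complex, had 142, 94.5 and 75.0 CPM at day 3 of ΔNp63, against 174, 133 and 105 CPM at day 0. The groups overlapped, replicate 1 being high in both, and each library was below its same-numbered partner (-0.42 ± 0.08, adjusted p = 0.0046). AURKB at day 6 of ΔNp63 had 139, 104 and 90.1 CPM (-0.30 ± 0.08, adjusted p = 0.0501). PLK1, the Polo kinase that acts from mitotic entry to cytokinesis, had 183, 142 and 123 CPM at day 3 of ΔNp63, against 223, 212 and 171 CPM at day 0. These also overlapped between replicates and were lower in 3 of 3 pairs (-0.45 ± 0.08, adjusted p = 0.00177). At day 6 PLK1 was at 197, 183 and 159 CPM, a change of -0.17 that was not called (adjusted p = 0.336).

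BIRC5 (survivin) and CDCA8 (borealin), which hold the passenger complex at centromeres, were both called at day 3 of ΔNp63. BIRC5 had 130, 142 and 130 CPM at day 3 of ΔNp63, against 156, 196 and 174 CPM at day 0 (-0.38 ± 0.08, adjusted p = 0.00759). CDCA8 had 55.1, 54.5 and 54.1 CPM, against 65.4, 95.6 and 77.3 CPM (-0.53 ± 0.10, adjusted p = 0.00402). Neither overlapped with day 0 at day 3, and both did at day 6, when BIRC5 had 135, 168 and 155 CPM and CDCA8 had 62.8, 70.3 and 67.3 CPM. The call of BIRC5 was lost when replicate 2 or 3 of ΔNp63 day 3 was left out, with an adjusted p of at most 0.058. NEK2, a kinase that separates centrosomes, changed by -0.38 at day 3 of ΔNp63 and was called only without the library that stood apart (adjusted p = 0.00891, against 0.0838 with it).

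At the kinetochore, 2 of 8 genes were called lower at day 3 of ΔNp63 with all libraries, against 2.69% of all genes. Without replicate 3 of ΔNp63 day 1, 6 were called, against 11.3%. TTK (MPS1), the kinase at the head of the spindle checkpoint, had 38.8, 45.8 and 43.5 CPM, against 65.9, 60.7 and 56.7 CPM at day 0, with no overlap (-0.51 ± 0.15, adjusted p = 0.0468). This call was lost in 17 of the 24 models that left out 1 library. CENPA, the histone H3 variant that marks centromeres, had 29.2, 38.3 and 34.9 CPM, against 37.0, 53.6 and 46.0 CPM at day 0; replicate 1 was low in both groups and they overlapped (-0.41 ± 0.10, adjusted p = 0.0196). It was lost when any 1 of the 6 libraries of these groups was left out. BUB1 and BUB1B, the checkpoint kinase and its partner in the mitotic checkpoint complex, had changes of -0.54 and -0.48 with no overlap, and both were called only without the library that stood apart. NDC80 and NUF2, which grip the microtubule end, had changes of -0.37 and -0.33 and were also called only without it. CENPE, a kinetochore kinesin, and CENPF, a large kinetochore protein, were at -0.01 and -0.10 and were not called in either case.

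Of the 5 kinesin motors, 3 were called lower at day 3 of ΔNp63, and only without the library that stood apart, against 11.3% of all genes in that fit. KIF2C, which takes apart microtubule ends, had the lowest fitted change of all members, -0.57, with 86.9, 78.9 and 78.1 CPM at day 3 of ΔNp63, against 119, 133 and 111 CPM at day 0. Replicate 3 of ΔNp63 day 1 held 254 CPM of it, and its SE was 0.19 with that library and 0.08 without it (adjusted p = 0.0831 and 1.17e-05). KIF20A, which brings the passenger complex to the midzone, and KIF23, the motor of centralspindlin, changed by -0.43 and -0.35 and were called in the same way. KIF11, which pushes the spindle poles apart, and KIF20B, a motor of cytokinesis, were at -0.28 and -0.19 and were not called.

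TPX2, which activates AURKA on the spindle, had 321, 280 and 291 CPM at day 3 of ΔNp63, against 417, 444 and 391 CPM at day 0. The groups were far apart, and TPX2 fell by 0.49 on the log2 scale (SE 0.07, adjusted p = 0.00043). At day 6 TPX2 had 336, 354 and 349 CPM, still below all day 0 libraries (-0.27 ± 0.07, adjusted p = 0.0452). The microtubule-associated NUSAP1 and DLGAP5 changed by -0.31 each at day 3 of ΔNp63 and were called only without the library that stood apart, while HMMR and CKAP2, also microtubule-associated, were at -0.17 and -0.16 and were not called. In the arm of the anaphase-promoting complex, PTTG1 (securin), which holds separase inactive, had 71.9, 68.2 and 62.2 CPM at day 3 of ΔNp63, against 96.0, 98.3 and 83.0 CPM at day 0. There was no overlap (-0.45 ± 0.10, adjusted p = 0.00668), and at day 6 it had 71.8, 84.4 and 66.4 CPM, which overlapped (-0.31, adjusted p = 0.0742). CDC20, an activator of the complex, UBE2C, its E2 enzyme, and CDCA3 changed by -0.50, -0.38 and -0.23 without the library that stood apart and were called only in that case.

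TOP2A and MKI67, often used as proliferation markers, were less clear. TOP2A, the topoisomerase that untangles sister chromatids, had 428, 452 and 394 CPM at day 3 of ΔNp63, against 541, 423 and 438 CPM at day 0. The groups overlapped and 2 of 3 pairs were lower (-0.12 ± 0.15, adjusted p = 0.719). MKI67, the protein that coats mitotic chromosomes, had 244, 224 and 194 CPM at day 3 of ΔNp63, against 345, 259 and 254 CPM at day 0, with no overlap (-0.36 ± 0.12, adjusted p = 0.0672, and 0.00932 without the library that stood apart). At day 6 of ΔNp63 TOP2A had 536, 467 and 354 CPM and MKI67 had 296, 237 and 174 CPM, which overlapped with day 0 in both genes. ANLN, a scaffold of the contractile ring, and ECT2, which activates RhoA for cytokinesis, were at -0.31 and -0.22 at day 3 of ΔNp63 and were not called.

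**Figure D3:**
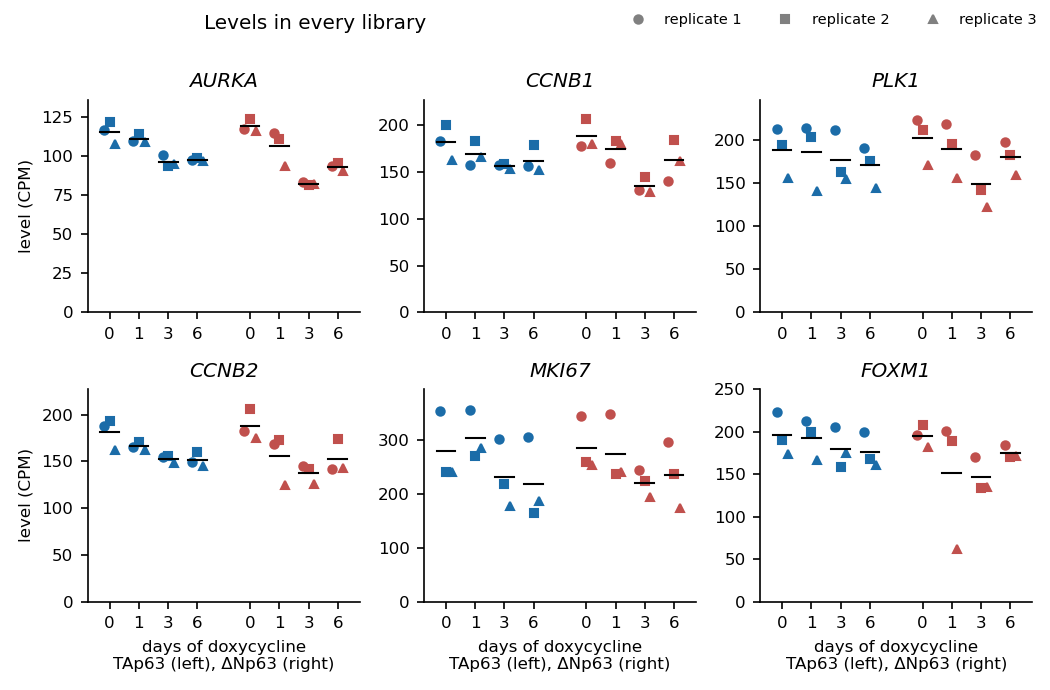
Level in CPM (y axis) of 6 members in every library by days of doxycycline (x axis), TAp63 line left and ΔNp63 line right in each panel; symbols are replicate numbers and bars are means of 3 libraries. AURKA is below all day 0 libraries at days 3 and 6 in both lines, MKI67 is high in replicate 1 throughout, and FOXM1 is at 62.5 CPM in replicate 3 of ΔNp63 day 1.

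In 35 of the 40 members the lowest mean of the ΔNp63 line was at day 3, and in 3 it was at day 6. The same count was not made over all genes. Day 6 was compared with day 3 after the values had been seen. The fitted change was above 0 in 37 members and below 0 in 3, against 46.31% of all genes below 0. The median log2 change was 0.15, against 0.02 over all genes. In 4 members the 3 libraries of day 6 were all above the 3 of day 3, a count not made over all genes. No member was called with all libraries by edgeR, against 0.0767% of all genes, 7 had an unadjusted p under 0.05 and were higher, against 3.39% of all genes, and DESeq2 called 2 higher, against 0.372%. Without the library that stood apart 2 were called higher, CCNB1 (0.26, adjusted p = 0.0474) and PLK1 (0.28, adjusted p = 0.049), against 0.64% of all genes. At day 1 of ΔNp63 the median change was -0.03 and 22 of the 40 fitted changes were below 0. No member was called there with all libraries by edgeR, against 0.0384% of genes lower, nor without the library that stood apart, against 0.298%. The 3 libraries were all below day 0 in 2 members, CCNB2 and AURKA, against 4.99% of all genes. They were all above day 0 in 1 member, CENPE, a count not made over all genes. At an unadjusted p under 0.05 there were 4 members (CCNB2, AURKA, KIF20A and UBE2C), all lower, near the 6.8% of all genes. All 4 were lowest of the 3 replicates in the library that stood apart. KIF20A had 81.8 CPM there, against 159 and 180 CPM in the other replicates, and UBE2C had 25.9 CPM, against 140 and 161 CPM. DESeq2, with all libraries, called CCNB2 lower, against 1.64% of all genes. Leaving out replicate 1 of ΔNp63 day 1, which keeps the library that stood apart, gave 1 call by edgeR, CCNB2 (adjusted p = 0.0498). That fit called 887 of all genes in either direction, against 29 with all libraries. CCNB2 had 125 CPM in the library that stood apart, against 169 and 173 CPM in the other replicates.

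In the TAp63 line, 39 of the 40 fitted changes were below 0 at day 3 and at day 6, CDC25B being the exception on both days (0.12 and 0.03). The median log2 change was -0.23 at day 3 and -0.24 at day 6, against -0.0012 and -0.01 over all genes. With all libraries edgeR called no member lower at day 3, against 0.109% of all genes. At an unadjusted p under 0.05, 13 were lower, against 3.38% of all genes, and DESeq2 called 6 lower, against 0.522%. Without replicate 3 of ΔNp63 day 1, a library of the other line, 11 were called lower at day 3, against 1.37% of all genes: CCNB2, CKS2, AURKA, AURKB, NEK2, BUB1, NDC80, CENPA, KIF23, TPX2 and PTTG1. At day 6 edgeR called none, against 0.0384% of all genes. At an unadjusted p under 0.05, 15 were lower, against 2.25% of all genes, and DESeq2 called 3 lower (CCNB2, AURKA and AURKB), against 0.205%. Without that library 8 were called lower at day 6, against 0.646%: CCNB2, CKS2, AURKA, AURKB, BUB1, NDC80, PTTG1 and MKI67. The 3 induced libraries were all below day 0 in 13 members at day 3 and in 8 at day 6, against 6.18% and 4.66% of all genes. In 3 of 3 pairs 32 members were lower at day 3 and 34 at day 6, against 19.4% and 19.2% of all genes.

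AURKA had 100, 93.6 and 94.8 CPM at day 3 of TAp63, against 117, 122 and 107 CPM at day 0. The groups did not overlap, and the change was -0.26 ± 0.07 (adjusted p = 0.0938, and 0.0118 without the library that stood apart). AURKA at day 6 of TAp63 had 97.4, 99.1 and 97.0 CPM, again below day 0 (-0.24, adjusted p = 0.172 and 0.0282). CCNB2 had 150, 161 and 145 CPM at day 6 of TAp63, against 187, 193 and 163 CPM at day 0, also with no overlap (-0.25, adjusted p = 0.293 and 0.0305). MKI67 had 305, 165 and 187 CPM at day 6 of TAp63, against 354, 242 and 241 CPM at day 0. Its groups overlapped through replicate 1, and each library was below its partner (-0.37 ± 0.12, adjusted p = 0.259 and 0.0358). PTTG1 had 74.5, 82.4 and 73.3 CPM at day 6 of TAp63, against 104, 91.4 and 85.7 CPM at day 0, with no overlap (-0.29, adjusted p = 0.318 and 0.0306).

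AURKB had 133, 107 and 91.1 CPM at day 6 of TAp63, against 176, 121 and 104 CPM at day 0, and TPX2 had 350, 346 and 330 CPM, against 425, 387 and 367 CPM. Only TPX2 was free of overlap, and AURKB was lower in 3 of 3 pairs. CCNB1, PLK1, FOXM1, TOP2A and CDK1 were not called at day 6 of TAp63 with or without the library that stood apart, with changes of -0.17, -0.14, -0.15, -0.22 and -0.28. PLK1 had 191, 176 and 144 CPM there, against 213, 195 and 156 CPM at day 0. TOP2A had 497, 336 and 374 CPM, against 524, 410 and 465 CPM, and FOXM1 had 200, 168 and 161 CPM, against 224, 190 and 174 CPM. All of these groups overlapped with day 0, and each library was below its partner. At day 1 of TAp63 the median change was 0.05, 25 of the 40 fitted changes were above 0, and edgeR called no member lower with all libraries or without the one that stood apart, against 0.00639% and 0.348% of all genes. None had an unadjusted p under 0.05 there, DESeq2 called none, and none had its 3 libraries all below day 0, against 2.97% of all genes. In 1 member, ANLN, the 3 libraries were all above day 0, a count not made over all genes.

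**Figure D4:**
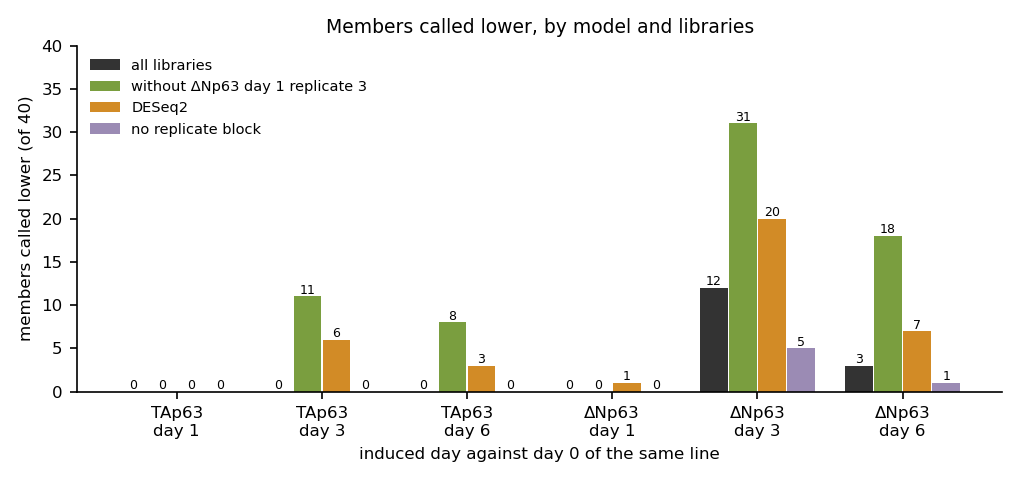
Number of the 40 members called lower (y axis) for each induced day against day 0 (x axis), by model: all libraries, without replicate 3 of ΔNp63 day 1, DESeq2 with all libraries, and without the replicate number as a block. At day 3 of ΔNp63 these give 12, 31, 20 and 5 members, and at day 3 of TAp63 they give 0, 11, 6 and 0.

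Whether the 2 lines differ in this response was tested as an interaction, the change in the TAp63 line minus the change in the ΔNp63 line. TP63 had 452, 596 and 625 CPM at day 3 of TAp63, against 1026, 768 and 802 CPM at day 3 of ΔNp63. At day 6 it had 611, 692 and 662 CPM, against 1033, 836 and 908 CPM. The form of p63 and the level of its RNA therefore cannot be told apart in this difference. No member was called at day 1, 3 or 6 by edgeR, with all libraries or without the one that stood apart; all libraries gave calls at 0%, 0.0639% and 0.166% of all genes at days 1, 3 and 6, and the fit without it gave 0.0127%, 0.944% and 1.87%. At day 3 the difference was above 0 in 35 of 40 members, meaning a less negative change in the TAp63 line, with a median of 0.13, against 0.02 over all genes. At an unadjusted p under 0.05 there were 4 members at day 3, against 2.21% of all genes above 0: PLK1 (0.36, interval of 2 SE from 0.13 to 0.59), BIRC5 (0.28), AURKA (0.27, from 0.08 to 0.47) and CCNB1 (0.26). DESeq2 called 1 of them at day 3, AURKA (0.27, adjusted p = 0.0493), against 0.128% of all genes above 0. At days 1 and 6 no member had an unadjusted p under 0.05 and DESeq2 called none. At day 6 the median difference was -0.01, and the interval for AURKA ran from -0.08 to 0.31. Without the library that stood apart, 11 of the 31 members called at day 3 of ΔNp63 were also called at day 3 of TAp63, which is 100% of the TAp63 list and 35.5% of the ΔNp63 list. At day 6 the 2 lists shared 7 genes, 87.5% of the 8 in TAp63 and 38.9% of the 18 in ΔNp63. With 31 of the 40 members called at day 3 of ΔNp63, most of any TAp63 list of members would be shared. The same overlaps were not computed over all genes, so no agreement between the lines is read from them. Before induction the lines were compared too: at day 0 no member was called, TAp63 line against ΔNp63 line, against 0.0384% of all genes (0.171% without the library that stood apart), none had an unadjusted p under 0.05 and DESeq2 called none. Day 6 and day 3 of TAp63 were compared after the values had been seen and gave no call by edgeR or DESeq2 and no unadjusted p under 0.05 (median change -0.0019, against 0.00639% of all genes called, and 0.0317% without the library that stood apart).

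**Figure D5:**
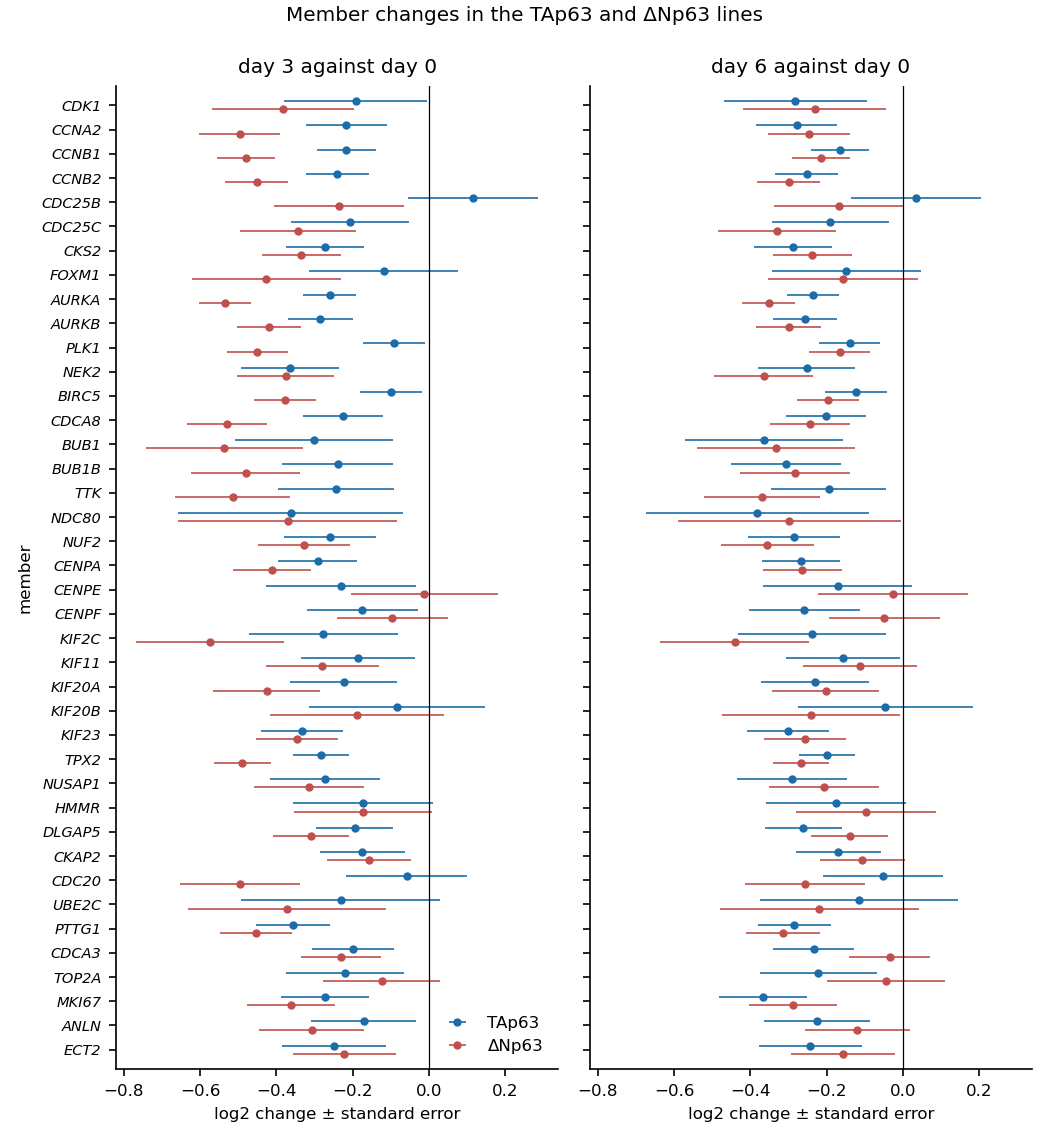
Log2 change ± SE (x axis) of each member (rows) at day 3 (left panel) and day 6 (right panel) against day 0, TAp63 in blue above ΔNp63 in red. At day 3 the ΔNp63 points lie further below 0 in 35 of 40 members, with medians of -0.23 for TAp63 and -0.37 for ΔNp63; at day 6 the medians are -0.24 and -0.24.

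Members and other genes alike differed by replicate number across lines and days. A test of the replicate number on 2 degrees of freedom called 20 of the 40 members, against 41.3% of all genes, and 29 without the library that stood apart, against 61.1%; these shares are near those of all genes. Of the 29, 16 were higher in replicate 1 than in both others and 9 were lower. AURKB averaged 155, 113 and 92.1 CPM in replicates 1, 2 and 3, and MKI67 averaged 319, 231 and 216 CPM. CDK1 averaged 86.3, 123 and 109 CPM and CENPA averaged 34.8, 48.2 and 43.1 CPM, both lowest in replicate 1. AURKA and TPX2 showed no called difference (adjusted p = 0.264 and 0.1). What the number stands for is not given in the sources used here. The step between replicate numbers of AURKB and MKI67 was wider than their change on any induced day. Without the block 5 members were called at day 3 of ΔNp63 (CCNB1, AURKA, CDCA8, TPX2 and PTTG1), against 0.537% of all genes, and 1 at day 6 (AURKA), against 0.416%.

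Genes around the members were read from lists of related functions. Of all genes, 2.69% were called lower at day 3 of ΔNp63 and 1.34% at day 6. Without the library that stood apart these shares were 11.3% and 5.94%. With all libraries 4.21% and 3.22% of all genes were called higher. Of 32 other spindle and kinetochore genes, 8 were called lower and 0 higher at day 3 of ΔNp63 (16 lower without the library that stood apart), with a median change of -0.27 and 32 fitted changes below 0. By day 6 of ΔNp63 2 were called lower (8 without that library): SPAG5, a spindle protein, at 137 ± 13 CPM, against 177 ± 19 CPM at day 0 (-0.36, adjusted p = 0.00955), and the kinesin KIFC1, at 98.3 ± 9.95 CPM, against 120 ± 17.1 CPM (-0.28, adjusted p = 0.032). Of 17 other regulators of mitotic entry and cytokinesis 4 were called lower at day 3 of ΔNp63 (10 without that library) and 0 at day 6 (5 without it). Of 16 tested genes of cohesin, condensin and separase 2 were called lower at day 3 (9 without it) and 1 at day 6 (6 without it), the condensin II subunit NCAPD3, at 251 ± 21.6 CPM, against 324 ± 48.1 CPM at day 0 (-0.36, adjusted p = 0.011). The 16 genes of the anaphase-promoting complex core and CDH1 had 0 calls at days 3 and 6 of ΔNp63 (3 lower and 1 higher at day 3, and 1 higher at day 6, without that library), with medians of -0.02 and 0.01.

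Of 33 genes of G1/S and DNA replication 6 were called lower at day 3 of ΔNp63, against 2.69% of all genes, with a median of -0.30. Without that library 23 were called, against 11.3%. At day 6 of ΔNp63 0 were called (2 without that library, near the 5.94% of all genes), with a median of -0.11. Of 18 genes of the DREAM and E2F regulators 1 was called lower at day 3 of ΔNp63, E2F7 (-0.45), against 2.69% of all genes. Without that library 7 were called lower, against 11.3%. Of 9 tested cell-cycle inhibitors none was called by edgeR at day 3 or 6 of either line with all libraries. Without that library 3 of the 9 were called lower and 1 higher at day 3 of ΔNp63, and 1 lower and 2 higher at day 6. That fit called 11.3% and 5.94% of all genes lower at these days, and 3712 and 2221 genes in either direction. CDKN1A, the CDK inhibitor p21, was called higher at both days, and at day 6 it was at 10.1 ± 1.14 CPM, against 6.81 ± 1.98 CPM at day 0 (0.58, adjusted p = 0.00879 in that fit). CDKN1B, the inhibitor p27, was called lower at both days (-0.28 at day 6, adjusted p = 0.00456), GADD45A and CDKN2C were called lower at day 3 and SFN was called higher at day 6 (0.37, adjusted p = 0.0344). In the TAp63 line no gene of the 7 lists was called by edgeR at day 3 or 6 with all libraries, against 0.109% and 0.0384% of all genes called lower. The fit without that library called 1.37% and 0.646% of all genes lower at days 3 and 6. In either direction it called 140 genes at day 1 and 722 at day 3. Without that library HJURP, KIF18B, CIT, NCAPH, RRM1, RFC4 and CCND2 were called lower at day 3 of TAp63, SPAG5, KIF18B, CIT, RBBP4, MCM3 and RRM1 were called lower at day 6, and CDKN1A was called higher at day 3 (0.69, adjusted p = 0.00557) and day 1 (0.63, adjusted p = 0.0402). E2F7, the inhibitors and these genes of the TAp63 line were chosen after their values were seen. Counts come from whole transcript spans without regard to strand, so members that overlap a neighbour are uncertain: CCNA2 with EXOSC9, CDC25C with FAM53C, FOXM1 with RHNO1 and ITFG2, PLK1 with ERN2, KIF20A with CDC23, KIF23 with LOC145694, HMMR with HMMR-AS1, CDCA3 with GNB3, ANLN with KIAA0895, and BUB1B with BUB1B-PAK6.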

How the data were processed

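The deposited table holds raw read counts per gene for 24 libraries, made by the authors with HISAT2 2.1.0 on hg38 and featureCounts, whose version is 1.6.1 per the submitters' processing notes and 2.0.0 per the file headers. Per the file headers, counting was over whole transcript spans, introns included, without strand; fragments on overlapping genes were not counted, and the isoforms of TP63 are summed. The counts were tested with edgeR 4.0.16 in R 4.3.3 (TMM scaling, filter by expression, quasi-likelihood test, group and replicate number as terms, 14 residual degrees of freedom), with Benjamini-Hochberg adjustment over 15642 genes. CPM values are TMM-scaled; SE is the log2 change over the square root of F. DESeq2 1.42.0 was an alternative. The code was tested on simulated data. Day 6 was compared with day 3 after the data had been seen. The members and lists were chosen with earlier results of these data known. Named in every library were members called against day 0 (the 12 with the lowest p), the 4 with the lowest p at day 6 in each line, and CDK1, CCNB1, PLK1, TOP2A, MKI67 and FOXM1. Promoter sequences are RefSeq's, GRCh38.p14.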

Additional observations from a re-analysis of the deposited data

How the results depend on the processing

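Without the replicate block 5 members were called at day 3 of ΔNp63 and 1 at day 6. That fit called 344 and 318 of all genes there in either direction. With the library that stood apart also left out, 11 and 2 members were called, against 1000 and 784 of all genes. A replicate block within each line gave 1 call at day 6 of ΔNp63, as did no filter on low counts. These fits called 593 and 602 of all genes there. DESeq2 called 6 members at day 3 of TAp63, 3 at day 6 of TAp63, 1 at day 1, 20 at day 3 and 7 at day 6 of ΔNp63 (0.522%, 0.205%, 1.64%, 5.65% and 2.95% of all genes called lower), 1 in the difference between lines at day 3, and 2 between day 6 and day 3 of ΔNp63 (0.128% and 0.372% of all genes called higher). A fit of only the groups compared called 10, 9, 32, 21, 1 (CDC20) and 2 members for TAp63 days 3 and 6, ΔNp63 days 3 and 6, the difference at day 3, and ΔNp63 day 6 against day 3, where it called 1.52%, 1.06%, 10.7%, 7.13%, 0.481% and 1.36% of all genes in the same direction. RLE scaling gave 12 and 4 at days 3 and 6 of ΔNp63, where it called 1083 and 720 of all genes in either direction. The causes were not tested. Leaving out 1 library at a time gave 9 to 31 calls at day 3 and 1 to 18 at day 6 of ΔNp63, and 0 to 1 at day 1. It gave 0 to 11 and 0 to 8 at days 3 and 6 of TAp63, and 0 to 2 for ΔNp63 day 6 against day 3. Of all genes, these fits called 405 to 3712, 355 to 2221 and 7 to 1350 at days 3, 6 and 1 of ΔNp63 in either direction. They called 56 to 722 and 47 to 568 at days 3 and 6 of TAp63, and 0 to 239 for ΔNp63 day 6 against day 3. The highest member counts, day 1 apart, came without replicate 3 of ΔNp63 day 1. The next highest at day 3 of ΔNp63 was 17, without replicate 3 of TAp63 day 1. At day 6 of ΔNp63, 1 member was called in 17 of 24 such fits; the calls of CCNB2 and TPX2 were lost in 21 and 22.

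For single members, leaving out 1 library was run for days 3 and 6 against day 0, and signs turned there, with no call, in 15 cases. The log2 change then ran from -0.288 to 0.094 for KIF20B at day 3 of TAp63, and at day 6 of TAp63 from -0.11 to 0.051 for KIF20B, -0.045 to 0.096 for CDC25B and -0.083 to 0.00375 for CDC20. For CENPE it ran from -0.166 to 0.081 at day 3 and from -0.253 to 0.149 at day 6 of ΔNp63. At day 6 of ΔNp63 it ran from -0.195 to 0.103 for CENPF, -0.19 to 0.038 for HMMR, -0.078 to 0.00903 for CDCA3 and -0.164 to 0.11 for TOP2A. Deviations of same-numbered libraries from their group means correlated above 0.1 in 25 of 27 pairs (-0.2109 to 0.8591), the exceptions involving ΔNp63 day 1. Of the 24 libraries, 22 correlated best with their own number. The pairs share libraries, and what the number stands for was not tested. Depth was lowest, 1530847 counts, in the library that stood apart.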
